A study of Caenorhabditis elegans with 4 samples.

Results

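Body wall muscle of Caenorhabditis elegans pulls on the cuticle through integrin attachments. Perlecan in the basement membrane binds an integrin pair in the muscle membrane, and the integrin recruits kindlin, PINCH and other adaptors inside the cell. At dense bodies, the worm's counterpart of Z-discs, vinculin and α-actinin then link these adaptors to the thin filaments. The genes examined here were unc-52, pat-2, pat-3, unc-112, deb-1, atn-1, zyx-1, unc-97, unc-95 and dim-1, taken as a fixed list of 10 genes of these structures. Every peak that shared at least 1 bp with the span of one of them in assembly WBcel235, on either strand, was taken. This gave 14 of the 2664 MSTR-1 peaks and 1 of the 310 N2 peaks.

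The data are eCLIP libraries, in which RNA crosslinked to a protein by UV light is sequenced after immunoprecipitation of that protein. All worms were young adults at 25 °C, crosslinked with UV light at 1.2 mJ/cm2, and lysates were made from whole worms. The MSTR-1 CLIP group holds 2 biological replicates of worms with the on49 allele of F22D6.2 on chromosome I, in which that gene encodes MSTR-1::3xFLAG, the tagged protein that was pulled down. The N2 CLIP group is 1 immunoprecipitation from untagged wild-type worms, the background of the antibody. The input is 1 size-matched library of the tagged genotype, so there is no input of N2 worms and no replicate of the input. Muscle is one tissue among many in a whole-worm lysate, so fewer muscle cells and less RNA per cell cannot be told apart here.

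CLIP library A had 2438775 reads inside MSTR-1 peaks, CLIP library B 3592308 and the input 408945. The attachment genes held 247, 417 and 104 of these. The column names do not say which library is replicate 1 or 2, hence the letters. Scaled reads below are the authors' values, the reads of a peak divided by a size factor of its library, and a mean fold is the mean of both scaled CLIP values over the scaled input. The 95% interval of a fold was taken from the exact Poisson limits of its input reads, and covers that counting error alone. Each listed peak had a deposited fold (both CLIP libraries summed) above 1 over the column read as this same input, so the list as deposited holds no peak at or below that value.

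MSTR-1 peaks lay over 4 of the 10 genes. The perlecan gene unc-52 had 10, dim-1 had 2, and atn-1 and zyx-1 had 1 each. No peak of either table overlapped pat-3, unc-112, deb-1, unc-97 or unc-95, and pat-2 had an N2 peak only. Of the 14 peaks, 1 was higher than the input and 0 were lower (limma with a variance trend, Benjamini-Hochberg adjusted p under 0.05 over all 2664 peaks). Over all peaks 12.7% were higher and 1.76% lower, so 1 of 14 is not above the background. At an unadjusted p under 0.05 there were 2 of 14, both higher, against 22.9% of all peaks in either direction. Both CLIP libraries lay above the input at 11 of the 14 peaks, against 53% of all peaks. Of these 11, 8 were peaks of unc-52, and 3 were among the 4 peaks of the other genes. The count thus rests largely on 1 gene, whose peaks are no replicates of each other. The median log2 difference of the 10 unc-52 peaks alone was also 0.94. The median log2 difference between CLIP and input was 0.94 over the 14 peaks and 0.45 over all peaks, and 2 of the 14 lay below the latter. The gap between these medians was 0.48, but 0.19 in library A alone (0.54 and 0.35) and 0.66 in library B alone (1.19 and 0.52).

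**Figure D1:**
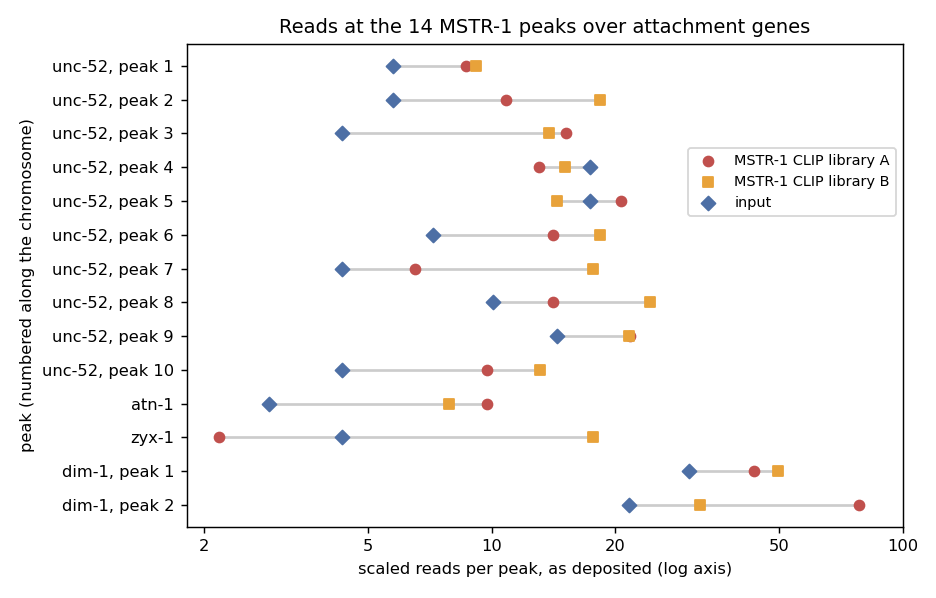
Scaled reads per peak on a log axis at the 14 MSTR-1 peaks over attachment genes, with 1 point for each of the 2 MSTR-1 CLIP libraries and the input, and grey lines that span the 3 values. The input is the lowest of the 3 at 11 peaks, zyx-1 has the widest spread between the CLIP libraries, and both dim-1 peaks hold the most reads.

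Most of the peaks lay over the gene of the extracellular end of the attachment. UNC-52, or perlecan, is a large basement membrane proteoglycan between muscle and epidermis that worms need to assemble their myofilaments. Its gene spans chromosome II from 14647321 to 14684456, and its 10 peaks, all listed on the plus strand, were at most 266 nt long. They lay between 9567 and 19371 nt from the lower-coordinate end of the gene and covered 1609 nt, or 4.33% of its 37136 nt. None lay in the rest of the span on either side. The gene table used gives spans without exons, introns, UTRs or strand, so no peak was placed in one of these. The first 3 peaks were separated by 2 and 3 nt, and the other gaps were 98 to 2680 nt.

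The highest mean fold of unc-52 was at the third of its peaks (14657295 to 14657450), where library A had 14 reads, library B 21 and the input 3. Scaled, these were 15.2, 13.8 and 4.33, a mean fold of 3.35 (95% interval 1.15 to 16.2). The CLIP libraries were close to each other there, at 3.51-fold and 3.18-fold, and both lay above the input. The log2 difference was 1.54 (SE 0.76), with an unadjusted limma p of 0.044 and an adjusted p of 0.20, so this peak was not called. edgeR's quasi-likelihood test on the recovered whole reads gave an adjusted p of 0.43.

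The lowest mean fold of unc-52 was at the fourth of its peaks (14659061 to 14659217), where library A had 12 reads, library B 23 and the input 12. The scaled values were 13.03, 15.1 and 17.3, so both CLIP libraries lay below the input, at a mean fold of 0.81 (0.46 to 1.57). The log2 difference was -0.29 (SE 0.59, limma adjusted p = 0.85). The next peak (14661749 to 14661898) had 19, 22 and 12 reads and a mean fold of 1.01, with library A above the input and library B below it. At the other 8 peaks of the gene both libraries lay above the input.

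Those 8 peaks had 3 to 10 input reads. The seventh peak (14662998 to 14663109) had the widest spread between the libraries, with 6 and 27 reads against 3 in the input, or 1.51-fold and 4.09-fold. The ninth (14666238 to 14666448) had the narrowest, with 20 and 33 reads against 10, which put both libraries at 1.51-fold and 1.499-fold. Library B was above library A on the authors' scale at 7 of the 10 peaks. Over the 10 peaks the median of the mean folds was 2.08 and the limma adjusted p ran from 0.20 to 0.996. Summed over the covered 1609 nt, unc-52 had 124 and 253 CLIP reads against 63 input reads, a fold of 1.65 (1.29 to 2.15), with 1.48 in library A and 1.82 in library B. The sum covers listed peaks only and has no test of its own.

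**Figure D2:**
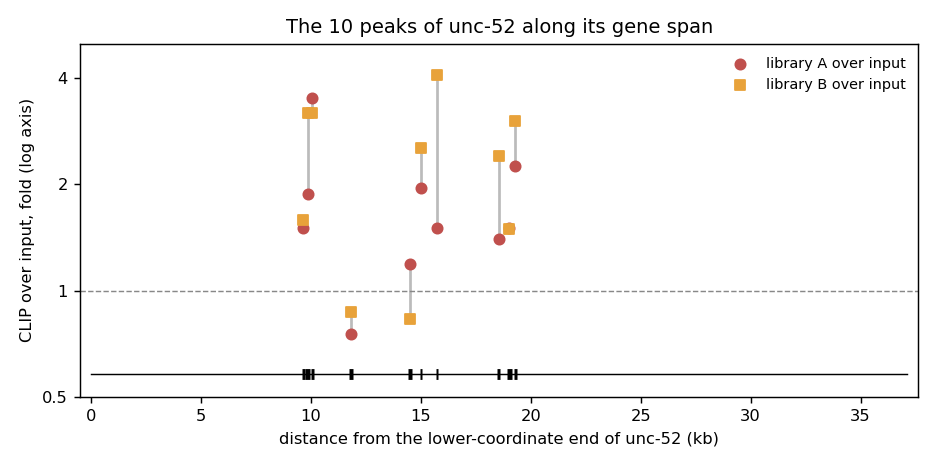
Fold of each MSTR-1 CLIP library over the input (log axis) at the 10 unc-52 peaks, against the distance in kb from the lower-coordinate end of the gene, with black bars on the lower line for the extent of the peaks and grey lines that join the libraries of a peak. All peaks lie between 9567 and 19371 nt of the 37136 nt span, and the fourth peak alone has both libraries below the dashed line at 1.

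The integrin itself was nearly absent from the tables. PAT-2 is the α subunit and PAT-3 the β subunit of the muscle integrin. No MSTR-1 peak overlapped pat-2 (chromosome III, 8818899 to 8825274), and the nearest lay 13951 nt away. An N2 peak of 74 nt (8819160 to 8819233, minus strand) lay 261 to 334 nt inside its lower-coordinate end, with 27 reads in N2 CLIP and 0 in the input. Against a floor of 3 input reads this is 25.8-fold higher than the input on the authors' scale. The floor is a set value, not the Poisson limit used for other folds, and the counting error of the 27 N2 reads is left out. The size factors of that scale were 0.591 for N2 CLIP and 1.69 for the input. Inside N2 peaks, though, N2 CLIP had 934439 reads and the input 302551. No other scaling of the N2 values was tried, so the fold holds for the authors' scale only. N2 CLIP is a single library, so the difference has no replicate check.

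This N2 peak belonged to a group with little overlap with the MSTR-1 list. Of the 310 N2 peaks 29 had no input read, with 30 N2 reads at most, and 4 of the 29 (13.8%) overlapped an MSTR-1 peak on the same strand. Of all N2 peaks 227 (73.2%) did. The tables hold no MSTR-1 reads at the pat-2 site, since values are given at listed peaks only. For pat-3 (chromosome III, 3908931 to 3914149) the nearest MSTR-1 peak was 1330 nt away, over mmcm-1, and no N2 peak overlapped it.

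Of the listed adaptors of the integrin tail, unc-112, unc-97 and unc-95, none had a peak in either table. UNC-112 is the worm kindlin, UNC-97 the PINCH adaptor of LIM domains and UNC-95 a LIM domain protein of attachment sites. Their genes lie on chromosome V (14691855 to 14696654), X (5593133 to 5594965) and I (14381360 to 14384737), with the nearest MSTR-1 peaks 94977, 107602 and 83620 nt away. DEB-1, the worm vinculin, which links integrin complexes to actin at dense bodies, had none either (chromosome IV, 7085215 to 7094266). A peak over the ribosomal protein gene rps-4 lay 511 nt from deb-1 and was not counted. For these genes the tables give no reads, and an absent peak sets no upper limit on their reads.

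Among dense body proteins, peaks lay over atn-1 and zyx-1. ATN-1 is α-actinin, the actin crosslinker of dense bodies. Its peak (chromosome V, 12478397 to 12478530, minus strand) straddled the lower-coordinate end of the gene, with 120 of its 134 nt inside the span. Library A had 9 reads there, library B 12 and the input 2, or scaled values of 9.77, 7.86 and 2.88. Both libraries were above the input, at 3.39-fold and 2.73-fold, with a mean fold of 3.06 (0.85 to 25.2). The log2 difference was 1.33 (SE 1.09, limma adjusted p = 0.54), and the peak was not called.

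ZYX-1 is zyxin, a LIM domain protein of dense bodies that is also found in nuclei. Its peak (chromosome II, 13060724 to 13060899, minus strand) lay 3572 to 3747 nt from the lower-coordinate end of the gene. Library A had 2 reads, library B 27 and the input 3, or scaled values of 2.17, 17.7 and 4.33. The libraries thus disagreed in direction, with library A at 0.50 of the input and library B at 4.09-fold. The mean fold of 2.30 (0.79 to 11.1) therefore rests on library B, and the log2 difference was 0.53 (SE 1.15, limma adjusted p = 0.85).

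The gene dim-1 gave the deepest peaks and the single call. DIM-1 is an immunoglobulin-repeat protein near the muscle membrane around dense bodies, known from mutations that suppress the muscle defects of an unc-112 mutant. The gene spans chromosome X from 8050466 to 8058220, with peaks of 211 and 332 nt on the plus strand, 770 nt apart. At the second peak (8052371 to 8052702) library A had 72 reads, library B 49 and the input 15, or scaled values of 78.2, 32.1 and 21.6. Both were above the input, but library A stood at 3.61-fold and library B at 1.48-fold, with a mean fold of 2.55 (1.55 to 4.55).

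The log2 difference at that peak was 1.18 (SE 0.40, limma adjusted p = 0.025), with 1.81 in library A alone and 0.55 in library B alone. The call was lost with edgeR on the deposited scaling (adjusted p = 0.070), with limma after TMM scaling (0.17) or DESeq2 size factors (0.19), with DESeq2's own test (0.27) and with limma without a trend (0.56). It turned to lower than the input with column totals (log2 difference -0.85, limma adjusted p = 0.048). The first dim-1 peak (8051390 to 8051600) had 40, 76 and 21 reads, or scaled values of 43.4, 49.8 and 30.3. Its libraries were closer, at 1.43-fold and 1.64-fold, with a mean fold of 1.54 (1.01 to 2.49), a log2 difference of 0.60 (SE 0.39) and a limma adjusted p of 0.39. The library with the higher value thus differed between both dim-1 peaks.

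With limma after TMM scaling 0 of the 14 were called, against 8.86% of all peaks higher and 9.05% lower, and after DESeq2 size factors 0, against 8.6% and 7.47%. edgeR called 0 of the 14 with the deposited scaling (9.5% higher and 1.43% lower over all peaks) and with TMM (4.2% and 5.74%), and DESeq2's own test called 0 (13.5% and 0.47% of the peaks with an adjusted p). DESeq2 gave an adjusted p at 1063 of the 2664 peaks, and a peak without one could not be called. How many of the 14 had one was not counted, so its 0 cannot be set against those shares. With limma after column totals 0 were higher and 5 lower, against 2.14% and 51.1% of all peaks, and limma without a trend called 0% of all peaks. At an unadjusted p under 0.05, limma had 1 of the 14 after TMM scaling (26.1% of all peaks), 1 after DESeq2 size factors (24.8%), 1 without a trend (14.3%) and 5 with column totals (56.9%). edgeR had 1 with the deposited scaling (20.2%) and 0 with TMM (21% of all peaks), and DESeq2's own test 0 (12.1%).

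None of the 14 MSTR-1 peaks overlapped an N2 peak, on either strand, against 8.75% of all MSTR-1 peaks that an N2 peak overlapped on the same strand. N2 values exist at listed N2 peaks only, so the expected number of N2 reads is given beside this count. At the fold measured in MSTR-1 CLIP, N2 CLIP would have had 2.13 to 5.25 reads at the peaks of unc-52, atn-1 and zyx-1, and 11.3 and 13.4 at those of dim-1. These expected numbers rest on the authors' size factors for both peak lists, and no other scaling was tried for them. The fewest reads in any listed N2 peak were 11, more than the number expected at 12 of the 14 peaks. The same held at 1791 of all 2664 MSTR-1 peaks, of which 213 had no input read and so no expected number. The 11 reads are no measured limit of detection, and the expected number can fall short of the number seen. A peak over the laminin gene lam-2, with 1 input read and 3.22 N2 reads expected in the same way, had an N2 peak with 11 reads. It is a single example, and how often the expected number falls short was not counted. The part of N2 depth in the missing overlap was not tested.

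Other genes of the same structures were read from a pair of lists, attachment partners and basement membrane partners. Of 15 attachment partners 4 had an MSTR-1 peak, with 9 peaks in all and a median log2 difference of 1.18. Of these peaks 0 were higher, 0 lower and 1 (11.1%) had an unadjusted limma p under 0.05. The shares over all peaks were 12.7%, 1.76% and 22.9%. The talin gene tln-1, whose protein ties integrin to actin, had a peak with 22 and 12 reads against 2 in the input (mean fold 5.50, limma adjusted p = 0.12). Its other peak had 11 and 8 reads against 1 (5.96-fold, limma adjusted p = 0.46). In both, library A was at 8.28-fold, with library B at 2.73-fold and 3.63-fold.

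The gene ketn-1, which encodes the actin-binding protein kettin, had 5 of the 9 peaks, at mean folds of 1.10 to 2.95, with the lowest also over an antisense RNA gene, F54E2.8. The gene cpna-1, for a copine-domain protein of attachments, had 3 and 15 reads against 2. The ninth peak, with 108 and 163 reads against 58, lay over pix-1 (a PIX-family exchange factor) but also over the tRNA gene K11E4.t5 inside it. It overlapped the gene K11E4.9 as well. That peak's reads cannot be given to pix-1. The genes of integrin-linked kinase and parvin, pat-4 and pat-6, had no peak.

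Of 13 basement membrane partners 3 had an MSTR-1 peak, with 7 peaks and a median log2 difference of 0.71. Of these 1 was higher (14.3%, against 12.7% of all peaks) and 0 were lower. The called peak lay over ost-1 (chromosome IV, 1107431 to 1107635), the gene of the collagen-binding protein SPARC. It had 37 and 44 reads against 6, with a mean fold of 3.99 (1.83 to 10.9), and passed both limma (adjusted p = 0.0025) and edgeR (adjusted p = 0.037). The other ost-1 peaks were not called, with mean folds of 1.24 to 1.98 and limma adjusted p of 0.40 to 0.92. Library A lay below the input at some of them, at 0.67 and 0.97 of it. The laminin γ gene lam-2 had 4 and 34 reads against 1, so that library A stood at 3.01-fold and library B at 15.4-fold (limma adjusted p = 0.25). The hemicentin gene him-4 had 5 and 8 reads against 2.

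N2 peaks overlapped 3 of the partner peaks, and these included the called one. For basement membrane partners 2 of 7 peaks were overlapped (28.6%), and for attachment partners 1 of 9 (11.1%), against 8.75% of all MSTR-1 peaks. That 1 is the pix-1 and tRNA site, whose reads cannot be given to pix-1. At ost-1 N2 CLIP had 20 reads against 6 in the input, 9.55-fold, beside a mean fold of 3.99 in MSTR-1 CLIP. At lam-2 it had 11 reads against 1, 31.5-fold beside 9.23-fold, and at the pix-1 and tRNA site 32 against 58, 1.58-fold beside 1.34-fold. The N2 fold was the higher value at all 3, from 1 N2 library, whose table was scaled separately and whose peaks differ in extent from those of MSTR-1.

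Genes of thick filaments and thin filament regulators had more peaks, and more reads per peak, than the attachment genes. Over all peaks 12.7% were higher, 1.76% lower, 22.9% had an unadjusted limma p under 0.05 and 8.75% were overlapped by an N2 peak. Genes of thick filaments had 44 peaks, 13 higher (29.5%) and 0 lower, with a median log2 difference of 0.78. An N2 peak overlapped 14 of them (31.8%). Regulators of thin filaments had 21 peaks, 4 higher and 0 lower, with a median of 0.55 and 5 overlapped by N2. Genes of giant muscle proteins had 19 peaks, 0 higher and 0 lower, with 1 at an unadjusted limma p under 0.05 and 1 overlapped by N2. Their median was 1.32, or 1.12 with the 4 peaks without an input read at their bound. The median of all peaks, 0.45, was 0.36 with its 213 such peaks at their bound. Epidermal hemidesmosome genes, on the other side of the basement membrane, had 29 peaks, 0 higher and 0 lower, with 1 at an unadjusted limma p under 0.05, 0 overlapped by N2 and a median of 0.62.

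The lists also differed in depth. The median number of input reads per peak was 44.5 for thick filaments and 39 for thin filament regulators, the lists with 13 and 4 calls. It was 4.5 for attachment genes, 2 for attachment partners, 7 for basement membrane partners, 2 for giant proteins and 3 for hemidesmosomes. All peaks had a median of 8. The part of depth in the counts of calls was not tested, and the lists were not tested against each other. Without dim-1, the remaining attachment genes had 12 peaks with 0 calls (1 at an unadjusted limma p under 0.05) and the same median log2 difference, 0.94. Without unc-52 they had 4 peaks, 1 higher, with a median of 0.89.

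**Figure D3:**
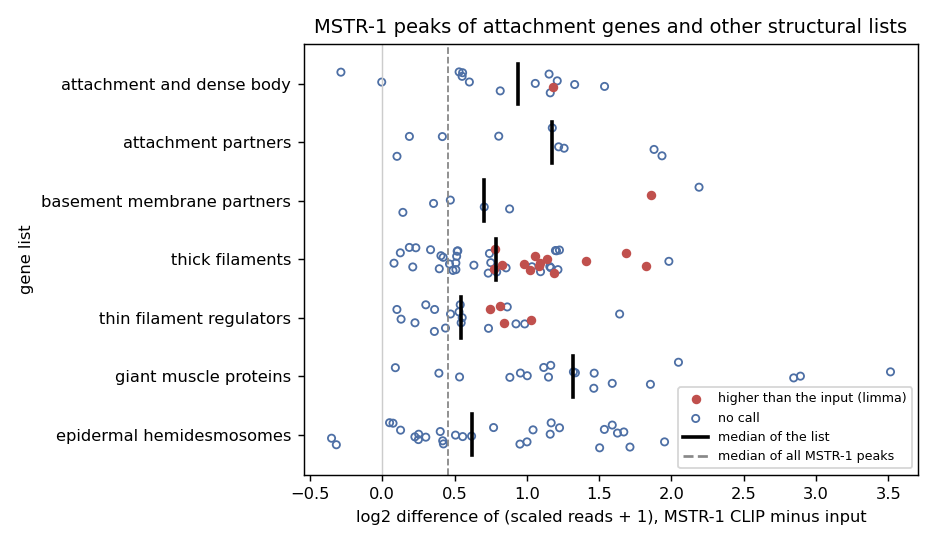
Each point is an MSTR-1 peak, placed by its log2 difference of (scaled reads + 1) between MSTR-1 CLIP and the input, for attachment and dense body genes and 6 other lists, with filled points for calls of limma, black bars for list medians (peaks without an input read at their fitted value) and a dashed line for the median of all 2664 peaks. The attachment genes have 1 filled point among 14, where 12.7% of all peaks were called higher, and a median of 0.94, against 0.45 for all peaks.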

How the data were processed

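Peak tables for MSTR-1 CLIP and N2 CLIP were used. The submitters' processing notes name STAR, deepTools, cutadapt and UMI-tools. Versions, peak caller, thresholds and build were not given in the sources used here. The deposited library columns hold a signal, reads per peak divided by 1 size factor per library (0.921, 1.53 and 0.693 for libraries A, B and the input). All values were whole multiples of 1 step per column within 0.02 of a read, so whole reads were recovered. The deposited fold is a ratio, the sum of both CLIP columns over the input. The control column was read as the input.

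Peaks were intersected with WBcel235 gene spans, leaving out 15363 piRNA genes; this takes the peaks to be on that assembly, and coordinates are printed as listed. All 14 member peaks lay over exactly 1 gene. limma 3.58.1 (R 4.3.3) was fitted to log2(scaled reads + 1) of all 2664 peaks with a variance trend. The added 1 pulls the log2 difference of each CLIP library from the input toward 0, most at peaks with few reads. The single input library is assumed to vary as the CLIP libraries do. edgeR 4.0.16 and DESeq2 1.42.0 on recovered reads, other scalings, a pseudocount of 0.5, a minimum of 10 reads, single CLIP libraries and stricter overlaps were alternatives. The limma and edgeR fits were also run on simulated reads, in which the input was drawn to vary as the CLIP libraries do. That run therefore cannot test the assumption about the input. The gene members and lists were chosen with earlier results of these data known. The text names, for each member, the peaks with the highest and lowest mean fold, called peaks and N2 peaks, and up to 4 genes per partner list by highest fold; other unc-52 peaks were chosen after their values were seen.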

Additional observations from a re-analysis of the deposited data

How the results depend on the processing

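The median log2 difference of all peaks was 0.45 with the deposited factors, 0.058 with TMM, 0.092 with DESeq2 size factors and -1.48 with column totals. That of the 14 member peaks was 0.94, 0.54, 0.57 and -0.996, and 0.54 to 1.19 with 1 CLIP library left out. With column totals the number of member peaks with both CLIP libraries above the input fell from 11 to 0 (it was 11 with TMM and with DESeq2 size factors too), and 5 were called lower in place of 0. Column totals also turned the log2 differences of the highest unc-52 peak (-0.31), atn-1 (-0.41), zyx-1 (-1.21) and both dim-1 peaks (-0.85 and -1.43), and called the lowest unc-52 peak lower (-2.26). With library A alone zyx-1 stood at -0.75. The number of member peaks called higher, 1, was 0 with TMM, DESeq2 size factors, column totals, edgeR with either the deposited or TMM scaling (the latter, and the count of peaks with both libraries above the input under other scalings, chosen after seeing the data), DESeq2 and limma without a trend. The cause was not tested. DESeq2 could call only the peaks to which it gave an adjusted p. The minimum of 10 reads left out no peak, and it, the pseudocount of 0.5 and the stricter gene and N2 overlaps changed no count. The strand alternative was not run, since the gene table gives no strand. Counts of calls could not be tested with 1 CLIP library. No paired analysis was possible because the input and N2 CLIP are single libraries and the columns carry no replicate numbers. With 2 to 21 input reads per member peak, counting error alone leaves intervals of several-fold at most peaks.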
